A study of Mus musculus with 4 samples.

Results

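Clec2l, Vstm2b and Serpind1 are 3 genes little studied in sensory ganglia, chosen by the intensities described here, which were lower on the arrays of the sample-2 level than on those of the sample-1 level. They are 3 of the 18193 genes that carry a probe set with a single gene symbol in the platform annotation. Their 5 probe sets, which are groups of short oligonucleotides that read 1 transcript, comprise 1 of Clec2l, 3 of Vstm2b and 1 of Serpind1, and no probe set lists any of them beside another gene. The study hybridised total RNA of dorsal root ganglia, which hold the cell bodies of sensory neurons beside the spinal cord, to 4 Affymetrix mouse arrays after fresh dissection. Of these, 2 held RNA from ganglia of the sample-2 level and 2 held RNA from ganglia of the sample-1 level. The labels name neither level, and give no strain, age, sex, number of pooled animals or treatment other than dissection. Nor do they say whether different animals stood behind the arrays of a level, so a p-value covers the spread of these arrays alone, and that spread may be technical.

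Clec2l encodes a C-type lectin-like transmembrane protein of the CLEC2 family that is found mainly in brain and is also called BACL. Several of its CLEC2 relatives are ligands of the NKR-P1 receptors of natural killer cells. Vstm2b encodes a protein with an immunoglobulin V-set domain and a transmembrane segment, whose function is little known. Serpind1 encodes heparin cofactor II, a serpin that the liver secretes into plasma and that inhibits thrombin, much faster once it is bound to heparin or dermatan sulfate.

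The genes lie on different chromosomes in the RefSeq annotation (GRCm38.p6), Clec2l on chromosome 6, Vstm2b on chromosome 7 and Serpind1 on chromosome 16. Their promoter windows, 250 bases before to 50 bases after the annotated start, are shown because they differ in base composition although the 3 genes were chosen for the same direction of difference. All are read 5′ to 3′ on the + strand, at chr6:38662819-38663118 for Clec2l, chr7:40899028-40899327 for Vstm2b and chr16:17331121-17331420 for Serpind1. Capitals mark every match, on either strand, to the GC box GGGCGG, the TATA box TATAAA, the CCAAT box CCAAT or the homeodomain core TAATTA, and no matches overlap.
Clec2l promoter: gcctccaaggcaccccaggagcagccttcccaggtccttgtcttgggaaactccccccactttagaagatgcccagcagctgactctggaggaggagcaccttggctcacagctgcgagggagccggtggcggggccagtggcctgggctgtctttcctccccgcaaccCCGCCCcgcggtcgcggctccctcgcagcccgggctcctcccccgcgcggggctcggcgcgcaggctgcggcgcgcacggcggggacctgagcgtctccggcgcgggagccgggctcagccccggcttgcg
Vstm2b promoter: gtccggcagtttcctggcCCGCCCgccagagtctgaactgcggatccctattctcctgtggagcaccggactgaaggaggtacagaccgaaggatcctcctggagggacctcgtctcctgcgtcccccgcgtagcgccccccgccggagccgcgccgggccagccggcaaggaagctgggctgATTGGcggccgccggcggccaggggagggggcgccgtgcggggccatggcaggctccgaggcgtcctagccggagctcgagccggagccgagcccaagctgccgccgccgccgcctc
Serpind1 promoter: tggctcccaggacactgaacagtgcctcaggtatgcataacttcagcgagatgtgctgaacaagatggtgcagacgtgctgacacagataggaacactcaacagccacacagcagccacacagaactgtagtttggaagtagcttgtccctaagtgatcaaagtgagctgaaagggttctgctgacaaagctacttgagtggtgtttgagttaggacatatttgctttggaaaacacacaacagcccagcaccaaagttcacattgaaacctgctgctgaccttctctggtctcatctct
The Clec2l window held 1 GC box, on the opposite strand, and the Vstm2b window 1 GC box and 1 CCAAT box, both on the opposite strand. The Serpind1 window held none of the 4 motifs. Over the 32841 RefSeq promoter windows of this length, 35.7% held a GC box, 37.4% a CCAAT box, 13.6% a TATA box and 5.29% the homeodomain core. A match describes the letters only.

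The GC content was 73.7% in both the Clec2l and the Vstm2b window, above that of 94.9% of all windows, and 47.7% in the Serpind1 window, above that of 30.8%. The Clec2l window held 29 CpG dinucleotides and the Vstm2b window 34, against 2 in the Serpind1 window and a median of 7 over all windows. So the promoters of Clec2l and Vstm2b are rich in CpG and that of Serpind1 is not.

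**Figure D1:**
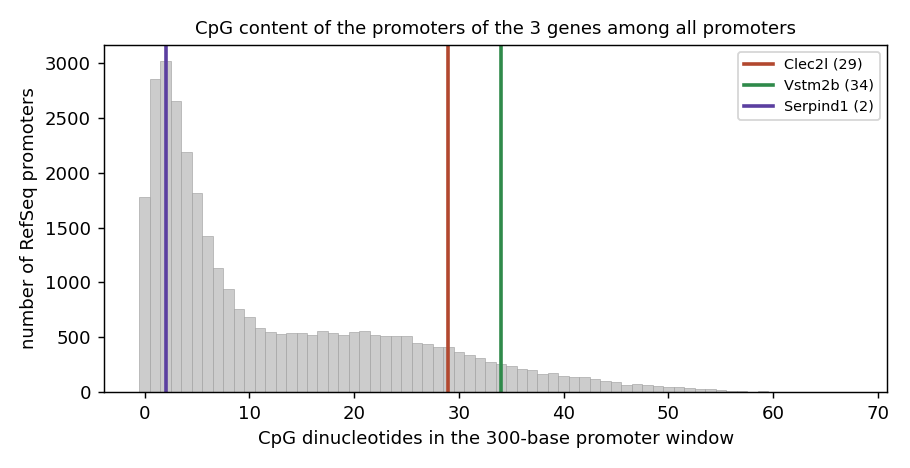
Number of RefSeq promoter windows (y axis) by the count of CpG dinucleotides in 300 bases (x axis), with a vertical line for each of the 3 genes. The lines of Clec2l (29) and Vstm2b (34) stand in the right-hand tail and that of Serpind1 (2) stands in the CpG-poor peak.

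The values are intensities deposited on a linear scale, with no detection call, and every array has the same trimmed mean of 150.0. Array medians over the 45101 probe sets were 25.9 to 27.3, and precision is limited by there being only 4 arrays. Of 12 dorsal root ganglion neuron markers 10 were on the array. All 10 were tested, by each gene's brightest tested probe set as for all lists here. Of these 0 passed an adjusted p of 0.05 (limma). At an unadjusted p under 0.05, 2 were higher and 0 lower (limma). Of all tested genes 5.73% were higher and 6.61% lower by that measure, and of tested probe sets 5.33% and 5.53%. The difference was above 0 in 8 of the 10 neuron markers and below 0 in 2. As both levels carry the same ganglion label, this comparison does not check that label. A dimmer probe set of Scn9a, a sodium channel, was higher at the sample-2 level, by 0.56 (limma, adjusted p = 0.0498). Prph, the intermediate filament peripherin, measured 6236 and 5829 on the sample-2 arrays, against 5658 and 5712 on the sample-1 arrays.

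Clec2l had intensities of 464 and 469 on the sample-2 arrays, against 976 and 1078 on the sample-1 arrays. The sample-2 arrays lay close together, and the dimmer sample-1 array was 2.08 times the brighter sample-2 array. The mean was 467 ± 3.58 at the sample-2 level and 1027 ± 72.3 at the sample-1 level (SD, n = 2 each), so the sample-2 mean was 0.454 of the sample-1 mean. On the log2(intensity + 16) scale the difference, sample-2 minus sample-1 level, was -1.11 ± 0.09 (SE). Every SE given is the moderated one of limma. It draws on the variance of other probe sets of like intensity as well as on the gene's own arrays. The pseudocount of 16 makes differences of dim probe sets smaller than the true ratio. As the RNA came from whole ganglia, fewer cells of a type and less RNA per cell cannot be told apart for any of the 3 genes.

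Vstm2b, by the probe set that its RefSeq transcript gave, had intensities of 47.8 and 37.1 on the sample-2 arrays, against 128 and 143 on the sample-1 arrays. The groups were separate, and the dimmer sample-1 array was 2.68 times the brighter sample-2 array. The mean was 42.5 ± 7.58 at the sample-2 level and 136 ± 10.7 at the sample-1 level (SD, n = 2 each), 0.313 of the sample-1 mean. The log2 difference was -1.38 ± 0.17 (SE).

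The other probe sets of Vstm2b lay near the bottom of the intensity scale and give no view of the difference. Of the pair, the one without a suffix for shared probes measured 3.45 and 1.84 on the sample-2 arrays, against 2.11 and 3.27 on the sample-1 arrays. Its groups overlapped. The one ending in _x_at measured 0.409 and 1.11 on the sample-2 arrays, against 1.32 and 7.55 on the sample-1 arrays, and that suffix marks probes that can match more than 1 transcript. Both lay below 14.3, the intensity at which probe sets were left out as too dim, on all 4 arrays, so 3 of the 5 probe sets passed the filter. Each gene thus rests on 1 probe set.

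Serpind1 had intensities of 54.2 and 39.98 on the sample-2 arrays, against 159 and 128 on the sample-1 arrays. The groups were again separate, and the dimmer sample-1 array was 2.36 times the brighter sample-2 array. The mean was 47.1 ± 10.1 at the sample-2 level and 143 ± 21.7 at the sample-1 level (SD, n = 2 each), 0.329 of the sample-1 mean. The log2 difference was -1.34 ± 0.17 (SE).

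**Figure D2:**
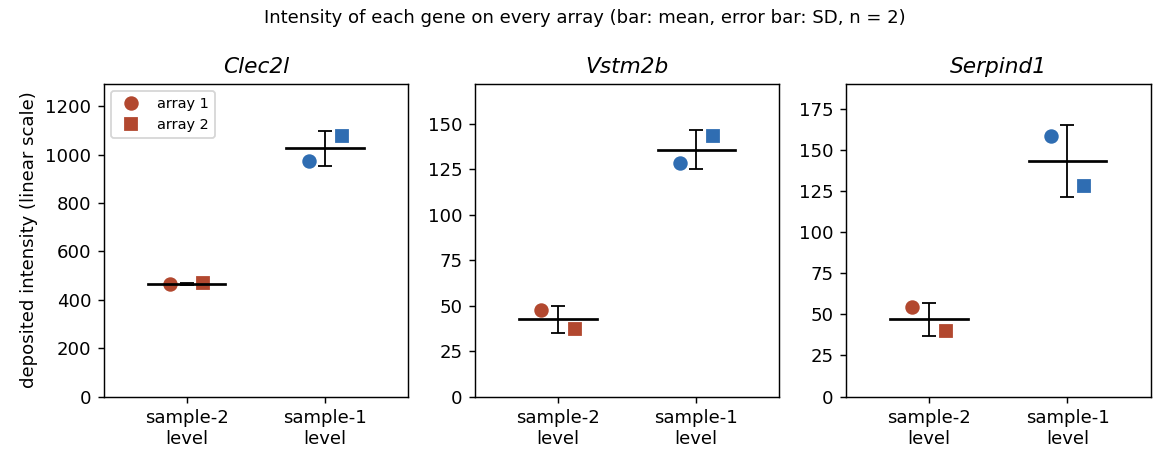
Deposited intensity (y axes, linear and starting at 0) of Clec2l, Vstm2b (its tested probe set) and Serpind1 on each array, with the sample-2 level on the left and the sample-1 level on the right. Circles are array 1 and squares array 2, horizontal bars are means and error bars are SDs (n = 2). In each panel both sample-2 arrays lie below both sample-1 arrays.

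These values chose the genes, so no test of their differences is given, and the rule named no numeric threshold. In all 3 tested probe sets both sample-2 arrays lay below both sample-1 arrays, as they did in 20.1% of the 27022 tested probe sets. A log2 difference of -1 or lower was found in 61 tested probe sets, 0.226% of them, these 3 included. Taken by each gene's brightest tested probe set, 8 of 13543 genes had a larger negative difference than Vstm2b, 10 than Serpind1 and 27 than Clec2l.

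**Figure D3:**
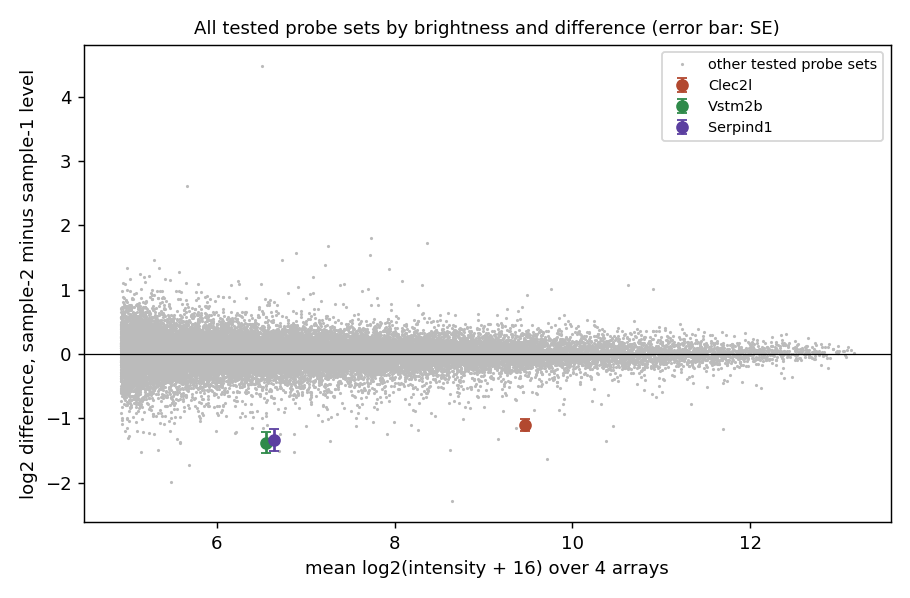
Log2 difference, sample-2 minus sample-1 level (y axis), against the mean log2(intensity + 16) over the 4 arrays (x axis) for the 27022 tested probe sets in grey, with the 3 genes in colour and their moderated SE as error bars. The genes lie among the lowest differences, at -1.11 (Clec2l), -1.38 (Vstm2b) and -1.34 (Serpind1), and some other probe sets lie lower still.

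The order of the 3 differences depended on the pseudocount. With a pseudocount of 1 they were -1.13 for Clec2l, -1.66 for Vstm2b and -1.59 for Serpind1, and with 64 they were -1.04, -0.91 and -0.90 in the same order of genes. Vstm2b and Serpind1 thus had the larger difference at 1 and 16, and Clec2l at 64. Leaving out each array in turn gave -1.18 to -1.04 for Clec2l, -1.51 to -1.25 for Vstm2b and -1.50 to -1.17 for Serpind1.

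Within the levels the 3 genes did not run alike. On the sample-2 arrays, array 1 was 0.989 times array 2 for Clec2l, 1.29 times for Vstm2b and 1.36 times for Serpind1. On the sample-1 arrays, array 1 was 0.905 times array 2 for Clec2l and 0.895 times for Vstm2b, and 1.24 times for Serpind1. So Serpind1 was the brighter on array 1 of both levels, and Clec2l was the brighter on array 2 of both. After each log2 profile was centred on its own mean, the Euclidean distance over the 4 arrays was 0.305 between Vstm2b and Serpind1, 0.336 between Clec2l and Vstm2b and 0.446 between Clec2l and Serpind1.

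The same distance named the genes whose profile over the 4 arrays was nearest to each. Since all share the contrast that chose the 3 genes, this is a description. Nearest to Clec2l were F8a (0.064), Slc13a4, a sulfate transporter (0.116), Sod3, the extracellular superoxide dismutase (0.122), Kcnq1, a voltage-gated potassium channel (0.125), and Il15ra, a chain of the interleukin-15 receptor (0.180). F8a measured 14.8 and 14.5 on the sample-2 arrays, against 44.3 and 50.8 on the sample-1 arrays. Sod3 measured 5.43 and 3.93 on the sample-2 arrays, against 28.7 and 34.2 on the sample-1 arrays, so its sample-2 level lay below the filter level. So did those of Kcnq1, at 4.53 and 6.24 on the sample-2 arrays, against 31.2 and 31.4 on the sample-1 arrays, and of Il15ra, at 6.29 and 9.32 on the sample-2 arrays, against 28.3 and 33.1 on the sample-1 arrays. These 3 passed the filter through the sample-1 level, and their fitted differences and distances depend on the pseudocount. The likeness is in the centred log2 profile, not in the level.

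Nearest to Vstm2b were Sod3 (0.218), Has1, a hyaluronan synthase (0.230), Gjb6, a connexin (0.287), Calb2, the calcium-binding protein calretinin (0.299), and Serpind1 itself (0.305). Has1 measured 13.1 and 4.71 on the sample-2 arrays, against 40.3 and 42.6 on the sample-1 arrays, and likewise passed the filter through the sample-1 level. Calb2 measured 47.9 and 34.0 on the sample-2 arrays, against 93.4 and 128 on the sample-1 arrays. It shared with Vstm2b the brighter array 2 at the sample-1 level. Nearest to Serpind1 were Col18a1, a basement membrane collagen (0.152), Ptgds, a prostaglandin D synthase of the meninges (0.199), Gjb6 (0.237), Shox2, a homeobox gene (0.242), and Has1 (0.286). Col18a1 measured 35.4 and 28.8 on the sample-2 arrays, against 113 and 83.2 on the sample-1 arrays, and shared with Serpind1 the brighter array 1 at both levels. The Ptgds profile is that of a probe set with 834 and 800.1 on the sample-2 arrays, against 2392 and 1863 on the sample-1 arrays. The Shox2 profile is that of a dim probe set, at 4.25 and 4.33 on the sample-2 arrays, against 40.4 and 28.5 on the sample-1 arrays, with the same limit. The names depended on the scale, since with a pseudocount of 64 the nearest 5 shared 0 genes with these for Clec2l, 0 for Vstm2b and 1 for Serpind1.

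**Figure D4:**
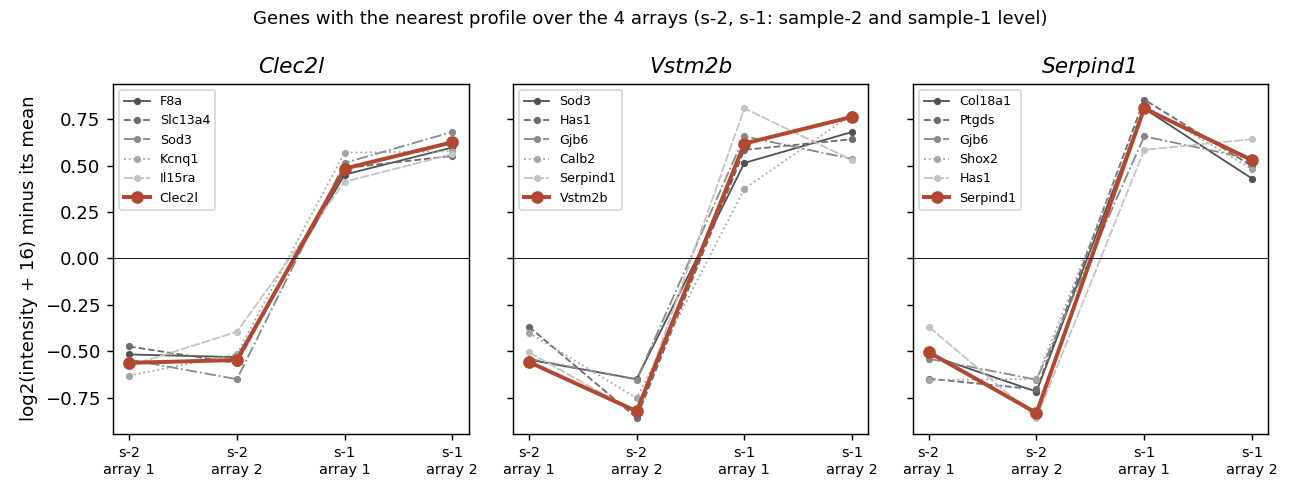
Log2(intensity + 16) minus its mean over the 4 arrays (y axis) on each array (x axis, sample-2 arrays left of sample-1 arrays) for each of the 3 genes in red and its 5 nearest genes in grey. The lines only join the values of a gene. All drawn profiles are lower on both sample-2 arrays, and those around Serpind1 other than Has1 are highest on array 1 of the sample-1 level.

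Markers of several cell types differed between the levels beside the 3 genes. The marker lists were chosen with earlier results of these data known, so their counts describe these arrays and give no independent support. The 15 tested markers of large-fibre neurons and proprioceptors were mixed, with 11 differences below 0 and 4 above. At an unadjusted p under 0.05, 9 were lower and 2 higher (limma). Of these 15 markers 5 fell and 0 rose (limma, adjusted p under 0.05 over all probe sets). Of all tested genes 0.842% passed that threshold. Of tested probe sets 0.622% passed it, 0.400% as lower and 0.222% as higher. The summed intensity of the 16 large-fibre and proprioceptor markers on the array was 11708 and 10627 on the sample-2 arrays, against 13706 and 14605 on the sample-1 arrays. The count was 2, Pvalb and Shox2, without array 2 of either level, and Asic1 did not pass whichever array was left out. Without array 1 of the sample-2 level 4 passed as lower and 1, Ntrk2, as higher. The 15 fibroblast, meningeal and perineurial markers all had differences below 0, with 13 lower and 0 higher at an unadjusted p under 0.05 (limma). Of these 15, 6 fell and 0 rose past the adjusted threshold. Their sum was 9825 and 8973 on the sample-2 arrays, against 16911 and 14526 on the sample-1 arrays. The count was 2, Mfap5 and Ptgds, without array 1 of the sample-1 level and 3 without array 2 of the sample-2 level. The 10 Schwann cell and myelin markers likewise all had differences below 0, with 8 lower and 0 higher at an unadjusted p under 0.05 (limma). Past the adjusted threshold 2 fell and 0 rose. The 10 summed to 19062 and 14679 on the sample-2 arrays, against 21982 and 19870 on the sample-1 arrays. Ugt8a was lost without array 1 of the sample-1 level or array 2 of the sample-2 level, with a pseudocount of 1, with quantile normalization and with median centring, which left Pmp2 alone. The 10 nociceptor markers all had differences above 0, with 9 higher and 0 lower at an unadjusted p under 0.05 (limma). Past the adjusted threshold 3 rose and 0 fell. The 10 summed to 16864 and 16812 on the sample-2 arrays, against 13655 and 13076 on the sample-1 arrays. The count was 1, Trpv1, when either sample-1 array was left out, and Mrgpra3 did not pass whichever array was left out. Without the filter, or without the intensity trend, these 4 lists lost all their calls. Dimmer probe sets of Vsnl1, Kcnc1, Ldhb, Ptgds and Mbp also passed as lower, and 1 of Plxnc1 as higher. The part of these markers in the values of the 3 genes was not tested.

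All 19 tested skeletal muscle markers had a difference below 0, with a median of -1.06. Their sum was 2724 and 1849 on the sample-2 arrays, against 2326 on array 1 and 11336 on array 2 of the sample-1 level. Both sample-2 arrays lay below both sample-1 arrays in 7 of the 19, and in 20.1% of all tested probe sets. At an unadjusted p under 0.05 (limma) 11 of the 19 were lower and 0 higher, against 6.61% and 5.73% of all tested genes. On array 2 of the sample-1 level 18 of the 19 were above both sample-2 arrays, and on array 1 of that level 7 were. Myh2, a myosin heavy chain, measured 2.16 and 11.7 on the sample-2 arrays, against 42.8 and 120 on the sample-1 arrays, and was the 1 marker past the threshold (limma, adjusted p = 0.0319). Its sample-2 level lay below the filter level, and its adjusted p was up to 0.150 in limma when 1 array was left out. The count past the threshold was 16 of 18 tested without array 1 of the sample-1 level, and Myh2 was lost without array 2 of that level or array 1 of the sample-2 level. Without array 2 of the sample-1 level the differences of the 3 genes were -1.04 for Clec2l, -1.31 for Vstm2b and -1.48 for Serpind1. The part of the muscle markers in the values of the 3 genes was not tested.

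Markers of liver, the best-known source of Serpind1, were mostly dim. The sum of 12 hepatocyte markers was 251 and 263 on the sample-2 arrays, against 246 and 192 on the sample-1 arrays, and 7 of the 12 lay below the filter. Alb, serum albumin, measured 21.8 and 9.19 on the sample-2 arrays, against 15.7 and 9.28 on the sample-1 arrays, and was among the 7. Of the 5 tested, 0 passed, and 0 had an unadjusted p under 0.05 in either direction (limma). Their differences were all above 0, with a median of 0.21. For natural killer and T cells, which carry receptors for other CLEC2 proteins, 8 of 11 markers on the array lay below the filter. The sum of the 11 was 178 and 155 on the sample-2 arrays, against 91.7 and 136 on the sample-1 arrays. Ncr1, which defines natural killer cells, measured 1.65 and 6.80 on the sample-2 arrays, against 9.23 and 6.09 on the sample-1 arrays. Of the 11 central nervous system markers 5 were tested, 0 passed and 0 had an unadjusted p under 0.05 (limma). Of the 7 satellite glial cell markers 0 passed, with 1 lower and 0 higher at an unadjusted p under 0.05 (limma). All 7 had a difference below 0, with a median of -0.08.

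The families of the 3 genes were then examined for differences of the same kind. Over all 5 related lists, 88 genes were tested and 1 passed an adjusted p of 0.05 in limma, with 14 lower and 4 higher at an unadjusted p under 0.05. Over all 13543 tested genes 114 passed, and 6.61% were lower and 5.73% higher at an unadjusted p under 0.05. The median log2 difference of all tested genes was -0.01, and 51.2% of them lay below 0.

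Of 19 CLEC2, NKR-P1 and related lectin receptors 14 were on the array and 6 were tested, with 0 past the threshold and 0 at an unadjusted p under 0.05 (limma). Their median difference was -0.21, with 4 of 6 below 0. Clec2d, the ligand of an NKR-P1 receptor, measured 3.36 and 29.3 on the sample-2 arrays, against 23.5 and 30.1 on the sample-1 arrays, and its groups overlapped. Klrb1a, an NKR-P1 receptor, measured 26.7 and 18.2 on the sample-2 arrays, against 41.1 and 31.6 on the sample-1 arrays, a difference of -0.45 ± 0.23 (limma, adjusted p = 0.53). Clec1a and Clec7a differed by -0.28 and 0.20.

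Of 16 VSTM, VSIG and similar immunoglobulin-domain genes 11 were tested and 0 passed, with 2 lower and 1 higher at an unadjusted p under 0.05 (limma). The median difference was -0.03. Vstm2l, a paralog of Vstm2b, measured 575 and 547 on the sample-2 arrays, against 549.6 and 593 on the sample-1 arrays, a difference of -0.03 ± 0.09 (limma, adjusted p = 0.957). Vstm2a, the other paralog, given although the rule for named genes does not name it, differed by -0.07 ± 0.12 (limma, adjusted p = 0.882). So the values of both Vstm2b paralogs overlapped between the levels. Vstm4 measured 83.3 and 44.6 on the sample-2 arrays, against 110 and 105 on the sample-1 arrays (difference -0.67 ± 0.21, limma, adjusted p = 0.232). Clmp differed by -0.46, Vsig10 by 0.51 and Vstm5 by 0.02.

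Of 40 other serpins 29 were on the array and 15 were tested, with 0 past the threshold and 2 lower and 1 higher at an unadjusted p under 0.05 (limma). The median difference was 0.00, with 7 of 15 below 0. Serpinh1, a collagen chaperone, measured 386 and 308 on the sample-2 arrays, against 547 and 473 on the sample-1 arrays, a difference of -0.54 ± 0.12 (limma, adjusted p = 0.0844). Serpinb6b differed by -0.32 and Serpinb1b by 0.28. The bright serpins Serpinb6a, Serping1, the inhibitor of complement C1, and Serpinf1, pigment epithelium-derived factor, differed by 0.07, -0.04 and -0.03. Serpinc1, antithrombin, is another heparin-activated inhibitor of thrombin and likewise outside the rule for named genes. It measured 16.4 and 20.8 on the sample-2 arrays, against 20.4 and 8.40 on the sample-1 arrays.

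Of 32 genes of coagulation, thrombin receptors and fibrinolysis 30 were on the array and 19 were tested. Of these 0 passed the threshold in limma, and 5 were lower and 1 higher at an unadjusted p under 0.05. F2, prothrombin, the precursor of the protease that heparin cofactor II inhibits, measured 9.73 and 18.9 on the sample-2 arrays, against 28.6 and 32.2 on the sample-1 arrays, a difference of -0.63 ± 0.26 (limma, adjusted p = 0.392). F2r, the main thrombin receptor, measured 234 and 270.0 on the sample-2 arrays, against 364 and 357 on the sample-1 arrays, a difference of -0.49 ± 0.11 (limma, adjusted p = 0.0859). F9, coagulation factor IX, differed by -0.45 and F2rl2, a further protease-activated receptor, by 0.28. Gas6, a ligand of TAM receptors, measured 785 and 729 on the sample-2 arrays, against 958 and 1048 on the sample-1 arrays (limma, adjusted p = 0.0784).

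Among 37 tested genes of dermatan sulfate and heparan sulfate synthesis and their core proteins, 1 fell and 0 rose, and the median difference was 0.02. Dcn, decorin, a core protein that carries dermatan or chondroitin sulfate, fell to 3316 and 3232 on the sample-2 arrays, against 4666 and 4230 on the sample-1 arrays (-0.44 ± 0.07, limma, adjusted p = 0.0174). It is also a fibroblast marker, and its adjusted p was 0.112 without array 1 of the sample-1 level. With the array number as a block 8 of the 88 related genes passed instead of 1, all lower: Vstm4, Clmp, Serpinh1, F2r, Gas6, Chpf, Bgn and Dcn, of which Chpf and Bgn are named because of this count.

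**Figure D5:**
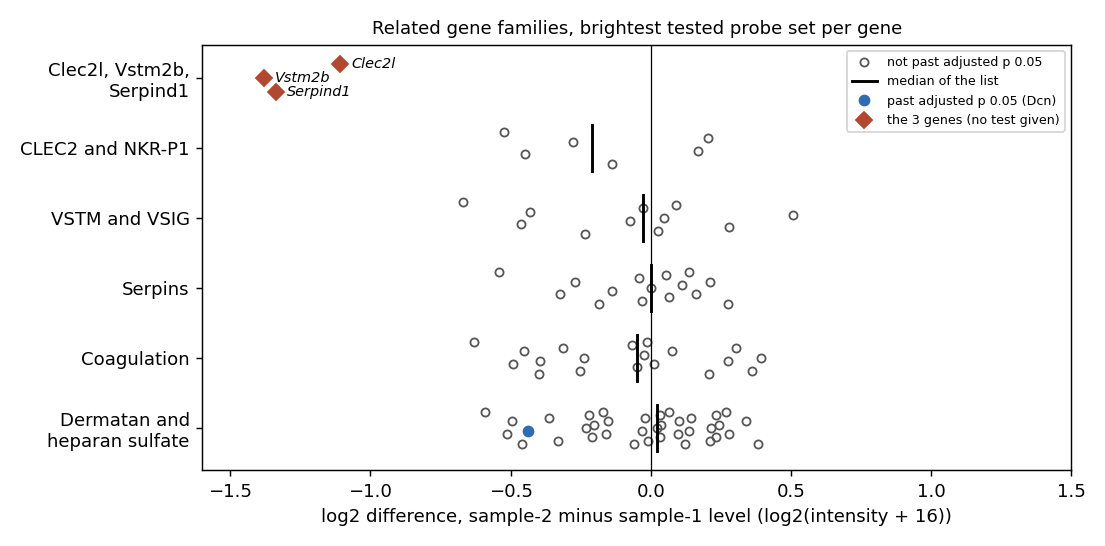
Log2 difference, sample-2 minus sample-1 level (x axis), of the 3 genes (red diamonds) and of the tested genes of 5 related lists (circles, spread vertically within a row for legibility). The filled circle is Dcn, the only gene of these lists past adjusted p 0.05, and black bars are list medians, which lie between -0.21 and 0.02.

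The genes next to the 3 on their chromosomes were read from the same annotation, as the 2 nearest protein-coding genes on each side and any gene that overlaps. Of these 15 genes 10 were tested, 0 passed and 1 had an unadjusted p under 0.05 (limma), with adjusted p from 0.411 to 0.999. Serpind1 lies within the span of Pi4ka, a phosphatidylinositol kinase gene, which measured 831 and 732 on the sample-2 arrays, against 813 and 747 on the sample-1 arrays, a difference of 0.00 ± 0.10. Hic2, a transcription factor gene beside Serpind1, differed in the other direction, by 0.56 ± 0.24 (limma, adjusted p = 0.411). Snap29 and Crkl, on its other side, differed by -0.03 and -0.21, and Tmem191c by 0.18. Klrg2, a lectin-like receptor gene beside Clec2l, measured 31.2 and 24.3 on the sample-2 arrays, against 26.8 and 43.4 on the sample-1 arrays. Luc7l2, Hipk2 and Tbxas1, the other neighbours of Clec2l, differed by 0.13, -0.21 and -0.16. Of the neighbours of Vstm2b only Zfp619 was tested, with a difference of 0.07.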

How the data were processed

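Per the labels, total RNA was hybridised to Affymetrix arrays. The deposited intensity values are linear, 1 per probe set. No source used here names the software, background correction or build. Without its highest and lowest 2% of values each array averaged 150.0, which shows scaling to a shared target and no centring per gene.

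The log2(intensity + 16) values of 45037 probe sets other than controls were filtered at the 40th percentile of their mean (an intensity of 14.3), which left 27022. These were fitted in limma 3.58.1 under R 4.3.3 (lmFit, eBayes with an intensity trend), as sample-2 minus sample-1 level with no covariate, and p-values were adjusted by Benjamini-Hochberg over all 27022 with a threshold of 0.05. The members, the 15 gene lists and the rule for named genes were chosen with earlier results of these data known. The rule named up to 6 genes past the threshold in each related list, or else the 3 with the largest difference and the 3 brightest, as well as the 5 nearest profiles. Names came from the platform annotation, in which 34945 probe sets had 1 symbol, 932 several and 9160 none, and 34741 gene IDs were found in RefSeq (GRCm38.p6). Sequences are RefSeq promoter windows. Alternatives were other pseudocounts, filters and scalings, no trend, a minimum fold, a replicate block, the mean over a gene's probe sets, and leaving out each array. Array numbers 1 and 2 recur at both levels without a stated pairing, and deviations of same-numbered arrays from their level means correlated at 0.026 across probe sets.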

Additional observations from a re-analysis of the deposited data

How the results depend on the processing

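The difference of each of the 3 genes was negative under every alternative run. This lends no support, because these values chose the genes. With both sample-2 arrays below both sample-1 arrays, another pseudocount or leaving out an array could not reverse the sign. Larger shifts came with a pseudocount of 1 (-1.66 for Vstm2b and -1.59 for Serpind1), a pseudocount of 64 (-1.04 for Clec2l, -0.91 for Vstm2b and -0.90 for Serpind1) and the mean of all 3 probe sets of Vstm2b (-0.55), of which 2 were below the filter. Without each array in turn the differences ranged from -1.18 to -1.04 for Clec2l, -1.51 to -1.25 for Vstm2b and -1.50 to -1.17 for Serpind1. The count of all probe sets past the threshold, 168, was 4 without the filter, 1 without the intensity trend, 10 with a minimum of 1.5-fold, 104 with arrays centred on their medians, 793 with the array number as a replicate block, and 102 to 241 without each array in turn, the lowest without array 2 of the sample-2 level. For the related genes the count, 1, was 0 without the filter, 0 without the trend, 0 with the 1.5-fold minimum, 8 with the replicate block and 0 to 3 without each array in turn, being 0 without array 1 of the sample-1 level, 3 without array 1 and 2 without array 2 of the sample-2 level. The cause of these changes was not tested. That the array numbers pair the arrays is not stated. Each level holds 1 array of each number, so the block could not change the differences of the 3 genes. With no detection calls, signal over background is unknown.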
